A study of Mus musculus with 12 samples.

Results

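The genes described here encode the voltage-gated sodium channels, calcium channels, potassium channels and hyperpolarisation-activated (HCN) channels of the mouse, with their accessory subunits. They are the genes whose symbol starts with Kcn, Cacna, Cacnb or Cacng, or with Scn or Hcn followed by a digit. After 5 antisense genes with such symbols were left out, there were 138 of them among the 47729 genes counted. RNA-seq of mouse heart gave 12 libraries, 3 in each of 4 groups. All mice were males of the C57BL/6 strain, 8 weeks old, with an osmotic pump under the skin for 28 days, and no altered allele is named. The pump gave saline in the Control group and Ang II (angiotensin II), the hormone that constricts vessels and drives cardiac hypertrophy, in the other 3 groups. Over the last 2 weeks of the infusion these 3 groups were given vehicle (the Ang II group), EHP-101 by mouth at 20 mg/kg (the EHP-101 group) or losartan at 0.6 g/L in the drinking water (the losartan group). Losartan blocks the type 1 Ang II receptor. Control sample titles also include "Ang II control", and the labels give no dose of Ang II.

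Each heartbeat is a sequence of openings of these channels in the membrane of the cardiomyocyte. Sodium channels start the action potential, L-type calcium channels hold its plateau and let in the calcium that triggers contraction, and several potassium channels end it and set the resting potential. HCN channels carry the pacemaker current of the sinoatrial node. A pore protein is usually joined by accessory subunits that change how much of it reaches the membrane and how it opens and closes. Many of the same genes also act in vascular smooth muscle, endothelium, fibroblasts and nerve, all of which a piece of heart holds.

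The libraries held between 22155418 and 24040516 counts. Levels are given as CPM, the count of a gene relative to its library total, with totals scaled by TMM, which balances libraries over the genes they share. Of the 138 genes, 85 passed the filter on low counts and were tested, 53 were not tested, and 7 of those had no read in any library. Of the 85, 65 exceeded the count minimum in all 12 libraries and 20 in fewer. The 6 markers of cardiomyocytes (Myl2, Myl3, Tnnt2, Tnni3, Actc1 and Myh6) summed to between 44003 and 61713 CPM in every library. They are not all confined to the ventricle, and the label heart does not say which part was sampled. The 10 atrial markers varied between libraries, from 120.3 to 3029 CPM in sum. Their score, a library's average log2 CPM over the 10 genes minus the mean of all 12 libraries, was 1.04, -1.77 and 1.21 in the Control libraries and 1.91, 1.42 and 1.09 with Ang II. It was -0.71, -1.57 and 0.72 with EHP-101 and -1.20, 0.85 and -3.01 with losartan. Control replicate 2 stood apart from all other libraries, at -84.37 on the first principal component against -12.72 to 32.41 for the other 11. The labels do not say whether replicates were separate animals, so p-values reflect only how these samples vary, which may be technical variation.

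Levels between genes were compared per kilobase of exon, as the mean over all 12 libraries. The 2-pore potassium channel Kcnk3 (TASK-1), which carries a background potassium current, was the highest at 63.97 CPM per kb. Kcnip2, the calcium-binding subunit of the fast transient outward channels, followed at 45.7 CPM per kb. The levels of the 85 tested genes spanned from there down to 0.0127 CPM per kb for Cacna1e, the pore of the R-type calcium channel. Kcnk3 had the highest level per kb in all 4 groups.

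Levels within a family differed widely. Cacna1c, the pore of the cardiac L-type channel, had 16.6 CPM per kb, against 2.82 for the T-type pore Cacna1g and 0.3702 for Cacna1d, the L-type pore of the sinoatrial node and atria. Its partners Cacna2d1, an alpha2delta subunit, and Cacnb2, the main cardiac beta subunit, had 17.9 and 5.56 CPM per kb. Among voltage-gated potassium pores, Kcng2, a silent subunit that joins other voltage-gated pores, had 23.98 and Kcnh2, the pore of the rapid delayed rectifier, 15.3 CPM per kb. The inward rectifiers Kcnj5 and Kcnj3, which together form the channel opened by acetylcholine, had 19.9 and 15.3 CPM per kb. Kcnj8 and Kcnj11, the pores of ATP-sensitive potassium channels, had 18.3 and 15.2, and Kcnj2, the main pore of the current that sets the resting potential, 11.9 CPM per kb. The sodium beta subunit Scn4b stood at 8.28 CPM per kb, far above Scn3b at 0.2701 and Scn2b at 0.161. Of the pacemaker channels, Hcn2 had 6.204 and Hcn4 0.946 CPM per kb. The plot of levels by family shows this span.

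**Figure D1:**
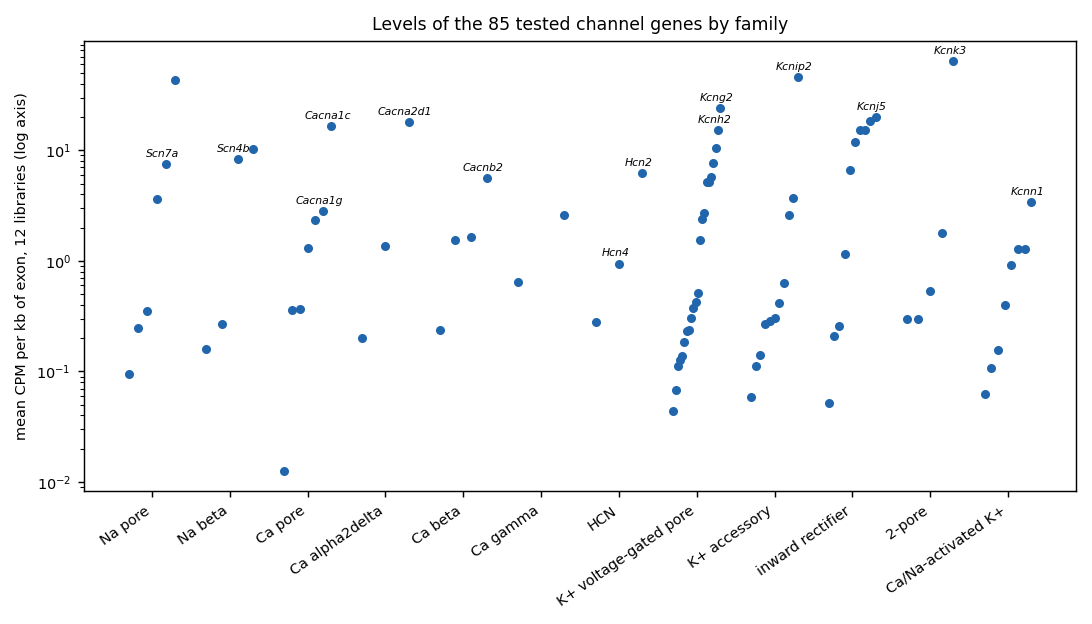
Mean level of each of the 85 tested channel genes over 12 libraries, in CPM per kb of exon on a log axis, with 1 point per gene and families along the horizontal axis. Kcnk3 at 63.97 and Kcnip2 at 45.7 CPM per kb lie highest. Only some of the genes named in the text carry a label.

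Ang II was first compared with Control, for the effect of the infusion. Of the 85 tested channel genes, 1 was lower at an adjusted p under 0.05 and 0 were higher, with edgeR (quasi-likelihood) and adjustment after Benjamini and Hochberg over all 15336 tested genes. Over all of those genes, 0.0261% were lower and 0.515% were higher by the same rule. The gene was Scn4b. The unadjusted p was under 0.05 for 13 channel genes (15.3%) on the high side and 6 (7.06%) on the low side, where 9.09% of all genes were higher and 8.53% lower. Counts of single families in this comparison are to be read beside these all-gene shares. With libraries scaled by total count alone, the split was 17 higher and 2 lower, where 15.2% of all genes were higher and 2.24% lower. That scaling moves the all-gene median on the log2 scale from 0.00 to 0.17. The median log2 fold change over the 85 channel genes was 0.10, against 0.00 over all genes tested, and it was -0.03 without Control replicate 2. As the RNA is from whole tissue, fewer cells of a type and less RNA per cell cannot be told apart in any of these results. Where groups are said not to overlap, this describes the libraries only. Full separation of 3 against 3 libraries has a probability of 0.1 when the groups do not differ. The share of all genes without overlap was not counted.

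Scn4b encodes the beta4 subunit of the sodium channel, a membrane protein bound to the pore through a disulfide bond, which changes the gating of the pore. The gene (ENSMUSG00000046480) lies on chromosome 9 from 45138395 to 45154152 on the forward strand of GRCm38 in GENCODE M21. Its level was 46.5, 72.4 and 67.7 CPM in the 3 Control libraries and 22.5, 33.6 and 30.6 CPM with Ang II. All 3 Ang II libraries lay below all 3 Control libraries. It fell from 62.2 ± 13.8 CPM to 28.9 ± 5.74 CPM (SD, n = 3), a log2 fold change of -1.10 ± 0.22 (SE, edgeR adjusted p = 0.048). The level was 27.5, 23.4 and 28.2 CPM with EHP-101, also below every Control library, and it fell there by 1.24 on the log2 scale against Control (-1.24 ± 0.22, adjusted p = 0.0366). With losartan it was 33.97, 56.8 and 51.9 CPM, all above every Ang II and EHP-101 library. Losartan replicate 1, just above the highest Ang II library at 33.6 CPM, lay below the Control range, and the other 2 lay inside it. The losartan group's log2 difference from Ang II was 0.72 ± 0.22 and did not pass (edgeR adjusted p = 0.349), nor did its difference from Control of -0.39 ± 0.22 (adjusted p = 0.474). The latter was -0.20 without losartan replicate 1, -0.26 without Control replicate 2 and 0.05 in limma-voom with quality weights, where its sign turned. Between EHP-101 and Ang II the log2 difference was -0.13 ± 0.22 (adjusted p = 0.975). These comparisons share their Ang II and Control libraries, so they are not independent of one another.

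The call for Scn4b lay near the threshold. The direction against Control was the same under 22 of 22 other settings for both groups, and the call was kept under 8 of 22 for Ang II and 11 of 22 for EHP-101. For Ang II it was lost with library size alone (adjusted p = 0.0847), a mean of at least 5 CPM (0.0506), limma-voom (0.0597), with only the 2 groups in the fit (0.173) and with the atrial score as a covariate (0.0935). For EHP-101 it was lost with library size alone (0.0585) and with only the 2 groups (0.0932). Leaving out Control replicate 2 gave a log2 fold change of -0.98 or -1.11 for the 2 groups (adjusted p = 0.146 for Ang II and 0.0884 for EHP-101). For Ang II the call was kept without Control replicate 1, Ang II replicate 2 or losartan replicate 1 (0.0352 to 0.0473) and lost without any one of the other 9 libraries (0.059 to 0.241, highest without Ang II replicate 1). For EHP-101 it was kept without Ang II replicate 1, losartan replicate 1 or losartan replicate 3 (0.0237 to 0.0482) and lost without any one of the other 9 (0.0504 to 0.148, highest without EHP-101 replicate 2). DESeq2 gave 0.0004 and 4.29e-05. For losartan against Ang II the limma-voom fit with quality weights passed (log2 0.90, adjusted p = 0.0174), and the other 21 settings did not. That fit gave losartan replicates 1, 2 and 3 weights of 0.389, 2.51 and 1.16. Without losartan replicate 1 the edgeR log2 difference was 0.91, and without Control replicate 2 it was 0.73. The plot of Scn4b under each setting shows all 3 comparisons.

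**Figure D2:**
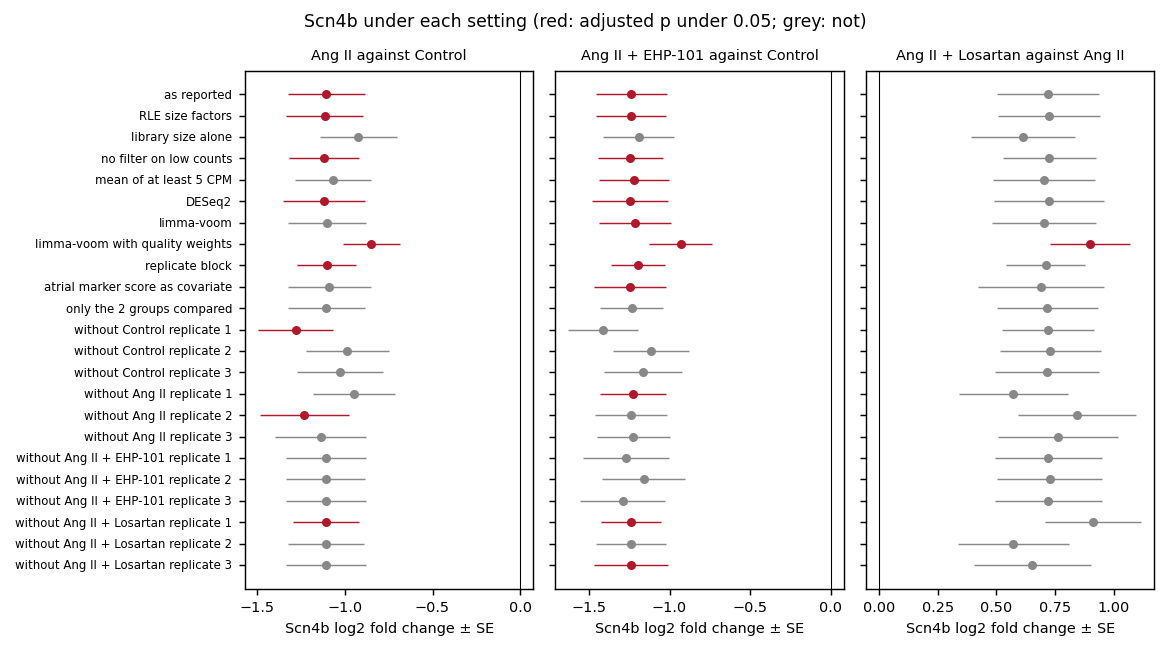
Log2 fold change of Scn4b with its SE in 3 comparisons, as reported and under 22 other settings, with red marking an adjusted p under 0.05 and grey the rest. All points lie below 0 against Control and above 0 for losartan against Ang II, and the points are red under 8 of the 22 settings for Ang II against Control, 11 for EHP-101 against Control and 1 for losartan against Ang II.

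The other sodium channel genes gave no call in this comparison. The beta subunits Scn2b and Scn3b, both of low level, had log2 fold changes of 0.03 ± 0.34 and 0.04 ± 0.34. In this fit Scn4b was thus the one called sodium channel gene, among pore and beta subunits alike. Scn2a and Scn3a, pore genes best known from neurons, pointed the other way from Scn4b. Scn2a had 0.543, 0.538 and 1.04 CPM in Control and 1.94, 1.08 and 1.42 CPM with Ang II, with no overlap (log2 1.05 ± 0.34, adjusted p = 0.185). Scn3a had 2.38, 1.08 and 2.29 CPM in Control and 4.03, 2.49 and 2.96 CPM with Ang II, again with no overlap (log2 0.70 ± 0.29, adjusted p = 0.254). Scn7a, a sodium-sensing relative of these pores that is not opened by voltage, had 44.4, 20.9 and 48.6 CPM in Control and 76.6, 45.4 and 51.8 CPM with Ang II, and its groups overlapped (log2 0.61 ± 0.30).

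Among calcium channel genes, the smallest p belonged to Cacna1s, the L-type pore best known from skeletal muscle. It had 9.94, 12.6 and 10.7 CPM in the Control libraries and 6.15, 7.89 and 6.596 CPM with Ang II. Every Ang II library was below every Control library, with a log2 fold change of -0.69 ± 0.18 (unadjusted p = 0.00263, adjusted p = 0.128, edgeR). Of its exon bases, 20.0% are shared with an opposite-strand gene that unstranded reads cannot separate, which leaves its level uncertain. The heart's own L-type pore Cacna1c had 359.7, 182 and 416 CPM and 301, 358 and 332 CPM, a log2 fold change of 0.05 ± 0.26. In both Cacna1c and the T-type pore Cacna1g the one low library was Control replicate 2, Cacna1g having 39.1, 12.3 and 33.9 CPM in Control and 35.6, 35.8 and 33.2 with Ang II. Cacnb3, a beta subunit found in smooth muscle and other non-myocytes, had 4.802, 6.14 and 4.46 CPM in Control and 9.15, 7.43 and 7.57 with Ang II, without overlap (log2 0.65 ± 0.21, adjusted p = 0.192). The cardiac beta subunit Cacnb2 had a log2 fold change of -0.15 ± 0.15 and the alpha2delta subunit Cacna2d1 one of 0.05 ± 0.19. Cacna2d2, of atrial tissue, had 0.94 ± 0.69, or 0.43 without Control replicate 2, where it was lowest. In all, 1 of 7 tested calcium pores had an unadjusted p under 0.05, on the low side, and 1 of 4 beta subunits, on the high side.

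None of the potassium channels that repolarise the cardiomyocyte was called between Ang II and Control in edgeR. The transient outward pores Kcnd2 and Kcnd3 had log2 fold changes of -0.03 ± 0.23 and -0.06 ± 0.21. Their partner Kcnip2 had 161, 179.7 and 152 CPM in Control and 111, 154 and 139 CPM with Ang II, 1 Ang II library lying inside the Control range (log2 -0.29 ± 0.14, adjusted p = 0.311). Kcna5, the ultrarapid delayed rectifier, had a log2 fold change of -0.40 ± 0.40. Kcnq1 and its partner Kcne1, which form the slow delayed rectifier, had -0.09 ± 0.12 and -0.03 ± 0.31, and Kcnh2 had -0.19 ± 0.14. Kcna4, a slow transient outward pore, had 0.54 ± 0.28 at 1.08 to 2.17 CPM in these 6 libraries. Kcnv2, another silent subunit, had the smallest p of the voltage-gated pores. Its level was 15.6, 11.03 and 15.7 CPM in Control and 7.37, 10.8 and 8.02 CPM with Ang II, without overlap (log2 -0.70 ± 0.24, adjusted p = 0.204). Of 22 tested voltage-gated potassium pores, 2 had an unadjusted p under 0.05 on the high side and 1 on the low side, and their median log2 fold change was -0.04.

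Among accessory potassium subunits the smallest p belonged to Kcne4. Kcne4, a small membrane protein that inhibits Kcnq1 and some Kv1 channels, had 5.97, 4.74 and 4.25 CPM in Control and 8.92, 6.36 and 14.3 CPM with Ang II. All Ang II libraries lay above the Control range, led by replicate 3 (log2 0.98 ± 0.28, adjusted p = 0.147), and without it the value was 0.63. Kcnab1, a cytoplasmic beta subunit of Kv1 channels, had 2.13, 0.807 and 1.63 CPM in Control and 2.77, 2.7 and 4.08 CPM with Ang II, also without overlap (log2 1.05 ± 0.36, adjusted p = 0.199). Of 11 tested accessory subunits, 3 had an unadjusted p under 0.05 on the high side, Kcnip4 (1.28 ± 0.58) being the third, and 0 on the low side.

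Among inward rectifiers, Kcnj15 (Kir4.2), a potassium pore known from kidney and endothelium, had the smallest p. Its level was 5.05, 2.31 and 4.42 CPM in Control and 9.68, 8.099 and 16.2 CPM with Ang II, with no overlap, 5.27% of its exon bases shared with an opposite-strand gene and the highest value in the third Ang II library. Its log2 difference was 1.52 ± 0.41 (unadjusted p = 0.00282, adjusted p = 0.13), and leaving out that library gave 1.17. The resting potential pores Kcnj2 and Kcnj12 had log2 fold changes of -0.01 ± 0.25 and -0.22 ± 0.17. Kcnj11, the pore of the cardiomyocyte ATP-sensitive channel, had 65.02, 65.3 and 63.8 CPM in Control and 46.8, 57.1 and 48.7 with Ang II. All 3 Ang II values were lower (log2 -0.35 ± 0.13, adjusted p = 0.23). Kcnj8, the vascular counterpart, had 47.8, 68.3 and 48.4 CPM in Control and 44.4, 45.1 and 45.4 CPM with Ang II (log2 -0.28 ± 0.15, adjusted p = 0.326). Kcnk3, the most abundant member per kb, had 266, 327 and 276 CPM and 210, 253 and 222 CPM (log2 -0.34 ± 0.15, adjusted p = 0.265), and the stretch-sensitive Kcnk2 had 0.05 ± 0.25. Of 10 tested inward rectifiers, 1 had an unadjusted p under 0.05 on each side, and of 5 tested 2-pore channels 1 on the low side.

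Kcnj15 and the small-conductance channel gene Kcnn3 were the 2 pore genes on the high side with the smallest p-values, and their upstream sequence is shown so that it can be set beside their values. They were picked after those values were seen. Both windows are the 250 bases before the RefSeq start on GRCm38.p6, forward strand, written 5′ to 3′, and neither holds an annotated exon. That of Kcnj15 is at chr16:95257308-95257557 and that of Kcnn3 at chr3:89519914-89520163. Capitals mark a match on either strand to the motif GATA, to the E-box written CANNTG, to the TATA box written TATAAA, to the GC box written GGGCGG or to the NFAT core written GGAAA.
Kcnj15: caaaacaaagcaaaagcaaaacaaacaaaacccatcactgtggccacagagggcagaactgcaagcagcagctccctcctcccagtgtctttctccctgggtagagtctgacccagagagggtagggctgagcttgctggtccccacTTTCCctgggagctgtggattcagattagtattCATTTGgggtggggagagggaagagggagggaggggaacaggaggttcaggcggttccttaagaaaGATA
Kcnn3: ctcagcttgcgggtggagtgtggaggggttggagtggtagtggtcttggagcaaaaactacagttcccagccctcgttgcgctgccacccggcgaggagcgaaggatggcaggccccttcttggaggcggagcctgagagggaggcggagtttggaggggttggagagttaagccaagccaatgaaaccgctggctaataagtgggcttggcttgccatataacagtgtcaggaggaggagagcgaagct
In the Kcnj15 window there was 1 match to GATA, 1 to the E-box and 1 to the NFAT core, and in the Kcnn3 window 0 matches to any of the 5 motifs. Among 32851 RefSeq windows of the same length, 53.6% held GATA, 66.2% the E-box, 12.4% the TATA box, 32.7% the GC box and 55.6% the NFAT core. GC content was 53.2% for Kcnj15 and 58.8% for Kcnn3. A match describes letters and is not a binding site, so the 2 windows show no shared motif of these 5.

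The values of the small-conductance calcium-activated channels lay in different directions. Kcnn3 had 2.92, 1.18 and 3.09 CPM in Control and 7.37, 3.95 and 5.51 CPM with Ang II. The groups did not overlap (log2 1.21 ± 0.33, unadjusted p = 0.00302, adjusted p = 0.134), and without Control replicate 2, its lowest library, it came to 0.90. Kcnn2 had 11.7, 11.5 and 13.5 CPM in Control and 7.86, 9.43 and 7.35 with Ang II, also without overlap but lower (log2 -0.57 ± 0.19, adjusted p = 0.187). Kcnn1 had a log2 fold change of -0.33 ± 0.16. Kcnma1, the pore of the large-conductance BK channel of smooth muscle, had 1.09, 0.0538 and 0.542 CPM in Control and 1.67, 1.33 and 2.62 CPM with Ang II (log2 1.68 ± 0.59, adjusted p = 0.21), without overlap. Its low Control replicate 2 holds few reads, and without that library the log2 value was 1.20. Its beta subunit Kcnmb1 had 3.92, 3.07 and 3.34 CPM in Control and 4.29, 3.49 and 7.61 CPM with Ang II, which overlap (log2 0.57 ± 0.32). Of the 8 tested calcium- or sodium-activated genes, 4 reached an unadjusted p under 0.05 on the high side and 1 on the low side. Over all genes these shares were 9.09% and 8.53%. The family median was 0.63, or 0.44 without Control replicate 2. The plot by library shows 6 of these genes.

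**Figure D3:**
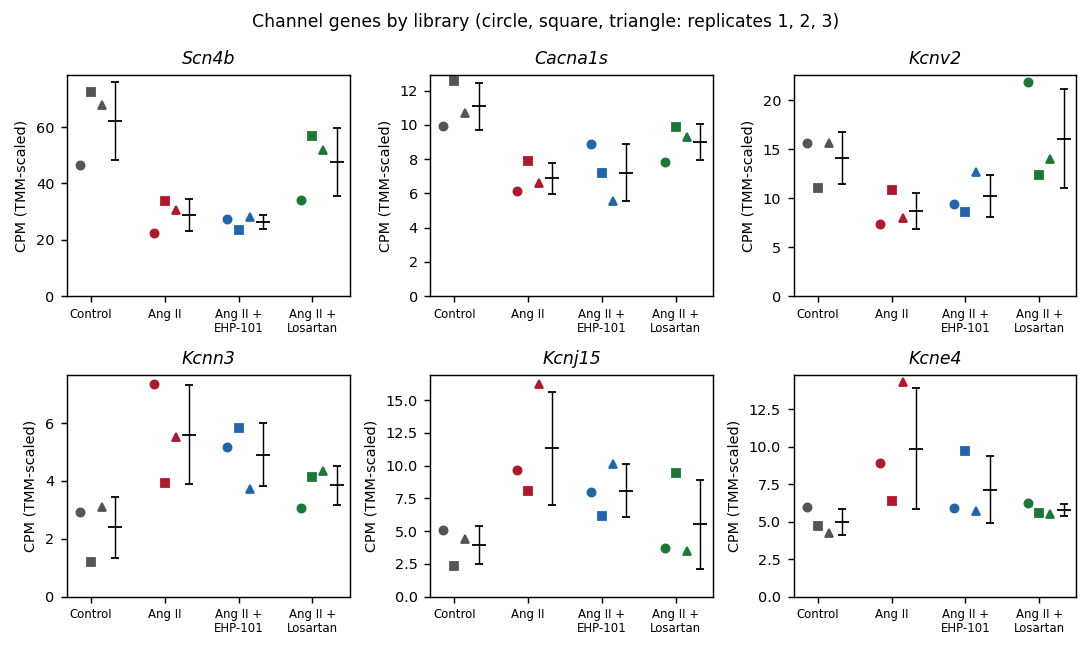
CPM of 6 channel genes in each of the 12 libraries, with circles, squares and triangles for replicates 1, 2 and 3 and a bar for the mean ± SD of each group (n = 3). Scn4b, Cacna1s and Kcnv2 are lower with Ang II than in Control without overlap, and Kcnn3, Kcnj15 and Kcne4 are higher without overlap, but only Scn4b passed the test over all genes. These 6 genes stand out by small p-values, so the lack of overlap follows in part from that choice.

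Markers of smooth muscle and fibroblasts were also higher in sum with Ang II. The 6 smooth muscle markers summed to 349.9 to 502.7 CPM in Control and 583.3 to 866.3 with Ang II, with a median of 0.91 on the log2 scale. The 6 fibroblast markers summed to 1055 to 1498 CPM and 1752 to 2462 CPM (median 0.60). The 8 Schwann cell and nerve markers, 7 of them tested, summed to 13.67 to 24.22 CPM and 23.31 to 37.17 CPM (median 0.57), while the 5 tested leukocyte markers had a median of 0.25, the 6 endothelial ones 0.17 and the 5 pericyte ones 0.36. The 6 cardiomyocyte markers had a median of -0.46, from -0.69 for Myl3 to 0.06 for Myh6. Control replicate 2 had 13894 CPM of Myl2 against 8310 and 6949 in the other Control libraries, and 9040 of Myh6 against 20000 and 24589. The lowest Control sums of the smooth muscle, fibroblast and nerve markers were also in that library. No marker of any of these lists was called at an adjusted p under 0.05 in edgeR, and none was at 0 throughout either group. By unadjusted p under 0.05, 3 of the 6 smooth muscle, 5 of the 6 fibroblast and 3 of the 5 pericyte markers were on the high side, and 3 of the 6 cardiomyocyte ones on the low side. Also on the high side by that rule were 2 of 7 Schwann cell and nerve markers, 1 of 5 leukocyte markers and 0 of 6 endothelial ones. Markers of the sinoatrial node and conduction tissue gave 2 of 7 (median 0.62), tested skeletal muscle markers 1 of 5 (-0.13) and atrial markers 0 of 10 (0.46). The 6 skeletal muscle markers summed to 3.98 to 4.84 CPM in Control and 4.57 to 5.24 CPM with Ang II. The part of cell composition in the values of Kcnj15, Kcnn3, Kcne4, Kcnma1 and Scn2a was not tested. DESeq2, with its own filter and test, called Scn4b and Cacna1s lower and Kcnn3, Kcnj15 and Kcne4 higher, 5 of the 131 channel genes given to it, where it called 513 of 28686 genes in all (1.79%). The limma-voom fit with quality weights called 22 of 85, and 2617 genes in all (17.1%).

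EHP-101 was compared with the Ang II group, for what the compound did while the infusion went on. Channel genes gave 0 calls in edgeR, as did all genes (0% of 15336). DESeq2 called 61 genes (0.213%), 0 of them channel genes. The unadjusted p was under 0.05 for 1 channel gene on the high side and 4 on the low side, where 2.11% of all genes were higher and 5.11% lower. Kcnab2, a Kv1 beta subunit with oxidoreductase activity, had the smallest p. It had 3.42, 2.28 and 3.67 CPM with Ang II and 1.903, 1.82 and 1.53 CPM with EHP-101, with no overlap (log2 -0.83 ± 0.22, unadjusted p = 0.00261, adjusted p = 0.357). The 3 Control libraries had 2.34, 2.91 and 2.34 CPM. Kcnt1, a sodium-activated potassium pore, was the gene on the high side, with 1.18, 0.623 and 0.412 CPM with Ang II and 1.18, 2.43 and 1.53 CPM with EHP-101 (log2 1.21 ± 0.44, adjusted p = 0.545), where the lowest EHP-101 value was just above the highest Ang II value.

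The other 3 with low values under EHP-101 were Cacna1d, Hcn4 and Cacna2d2, all expressed in the atria or the sinoatrial node. Cacna1d had 9.91, 5.73 and 4.72 CPM with Ang II and 3.68, 2.76 and 3.42 CPM with EHP-101 (log2 -1.04 ± 0.42, adjusted p = 0.603). Hcn4, the main pacemaker channel, had 8.202, 8.18 and 5.697 CPM with Ang II and 5.202, 4.302 and 3.59 CPM with EHP-101 (log2 -0.75 ± 0.33, adjusted p = 0.657). Cacna2d2, an alpha2delta subunit, had 34.1, 16.1 and 14.2 CPM with Ang II and 8.59, 2.62 and 10.6 CPM with EHP-101 (log2 -1.56 ± 0.70, adjusted p = 0.681). In all 3 genes the EHP-101 values lay wholly below the Ang II values. Kcnmb1 was next, with 3.68, 3.09 and 2.76 CPM under EHP-101 (log2 -0.69 ± 0.32, adjusted p = 0.694) and an overlap with the Ang II libraries. The atrial markers had a median log2 difference of -1.44 in the same comparison and 0 of 10 were called (1 at an unadjusted p under 0.05). All 5 tested leukocyte markers had an unadjusted p under 0.05 on the low side, with a median of -0.95 and 0 called. So had 2 of 6 fibroblast markers (-0.40), 2 of 7 Schwann cell and nerve markers (-0.59), 1 of 6 smooth muscle markers (-0.35) and 1 of 7 node and conduction markers (-0.80). The part of any of them in these values was not tested. With the atrial score as a covariate the median over the 85 channel genes went from -0.12 to 0.04. The mean score was 1.48 with Ang II and -0.52 with EHP-101, so that fit cannot fully separate the score from the treatment.

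Kcnj15, Kcnn3, Kcne4 and Cacna1s had mean levels with EHP-101 between those of the Control and Ang II groups, while Scn4b, Scn2a and Scn3a lay further from Control with EHP-101 than with Ang II. These genes stand out by small p-values between Ang II and Control, and both comparisons use the same Ang II libraries. Genes picked that way tend to lie nearer Control in a further group, so these means do not measure an effect of EHP-101. Kcnj15 had 7.95, 6.13 and 10.2 CPM, Kcnn3 5.16, 5.84 and 3.72 CPM and Kcne4 5.92, 9.73 and 5.74 CPM, and each of these ranges overlapped that of the Ang II libraries. Their log2 differences from Ang II were -0.49 ± 0.39, -0.19 ± 0.32 and -0.47 ± 0.28, with adjusted p values of 0.919, 0.975 and 0.834 in edgeR. Cacna1s had 8.88, 7.201 and 5.56 CPM, a log2 difference of 0.07 ± 0.19. Cacna1c and Kcnip2 had 0.32 ± 0.26 and 0.30 ± 0.14.

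Losartan was set against the Ang II group in the same way. The same Ang II libraries serve here as against Control, so a value extreme in them moves the 2 comparisons in opposite directions. There were again 0 calls among channel genes and 0% of all 15336 genes passed in edgeR. The DESeq2 total was 108 genes (0.376%), 0 of them channel genes. An unadjusted p under 0.05 was found for 3 channel genes on the high side and 11 on the low side (3.53% and 12.9%), where 2.26% of all genes were higher and 6.14% lower. With the atrial score as a covariate the counts were 2 and 3, where 3.81% and 4.32% of all genes passed. The mean score was 1.48 with Ang II and -1.12 with losartan, so that fit cannot fully separate the score from the treatment. The 3 on the high side were Kcnv2, Scn4b and Kcnip2. Kcnv2 had 7.37, 10.8 and 8.02 CPM with Ang II and 21.9, 12.4 and 14 CPM with losartan, all of the latter higher (log2 0.88 ± 0.24, unadjusted p = 0.00294, adjusted p = 0.316), and 0.60 without losartan replicate 1. Kcnip2 had 111, 154 and 139 CPM with Ang II and 167, 165 and 183 CPM with losartan, without overlap (log2 0.35 ± 0.14, adjusted p = 0.51).

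On the low side, Kcnh1, the ether-a-go-go channel that is low in heart, had 0.532, 0.291 and 0.5997 CPM with Ang II and 0.139, 0.209 and 0.127 CPM with losartan (log2 -1.55 ± 0.43, adjusted p = 0.316). The groups did not overlap, but its level passed the count minimum in only 4 of 12 libraries. Cacna2d2 had 3.67, 4.14 and 3.33 CPM with losartan, all below every Ang II library (log2 -2.53 ± 0.74, adjusted p = 0.349), and its log2 difference was -0.94 with the atrial score as a covariate. Kcnab2 had 1.81, 1.88 and 2.15 CPM and Cacnb3 4.55, 6.398 and 4.89 CPM, both without overlap (log2 -0.68 ± 0.22 and -0.61 ± 0.21, adjusted p = 0.391 and 0.424). Kcne4 had 6.23, 5.604 and 5.48 CPM (log2 -0.77 ± 0.28, adjusted p = 0.446), again with no overlap. Kcnj15 had 3.67, 9.45 and 3.46 CPM, where losartan replicate 2 alone lay in the Ang II range (log2 -1.03 ± 0.40, adjusted p = 0.485). Kcnma1 was also below an unadjusted p of 0.05, with a log2 difference of -1.29 ± 0.57, and the remaining genes of the 11 lay between -1.32 and -0.76. The limma-voom fit with quality weights called 6 channel genes here, and 598 genes or 3.9% of all, with Scn4b, Cacna1s and Kcnv2 higher and Cacna2d2, Kcnab2 and Kcnh1 lower. No other setting called any channel gene in this comparison. Several marker lists were lower in the same comparison, with 0 markers called. An unadjusted p under 0.05 on the low side was found for 4 of 6 fibroblast markers (median log2 difference -0.58), 4 of 7 Schwann cell and nerve markers (-0.79), 3 of 5 leukocyte markers (-0.56) and 3 of 7 node and conduction markers (-1.30). It was found for 1 of 10 atrial markers (-1.02) and 0 of 6 smooth muscle markers (-0.48). Their part in these values was not tested.

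**Figure D4:**
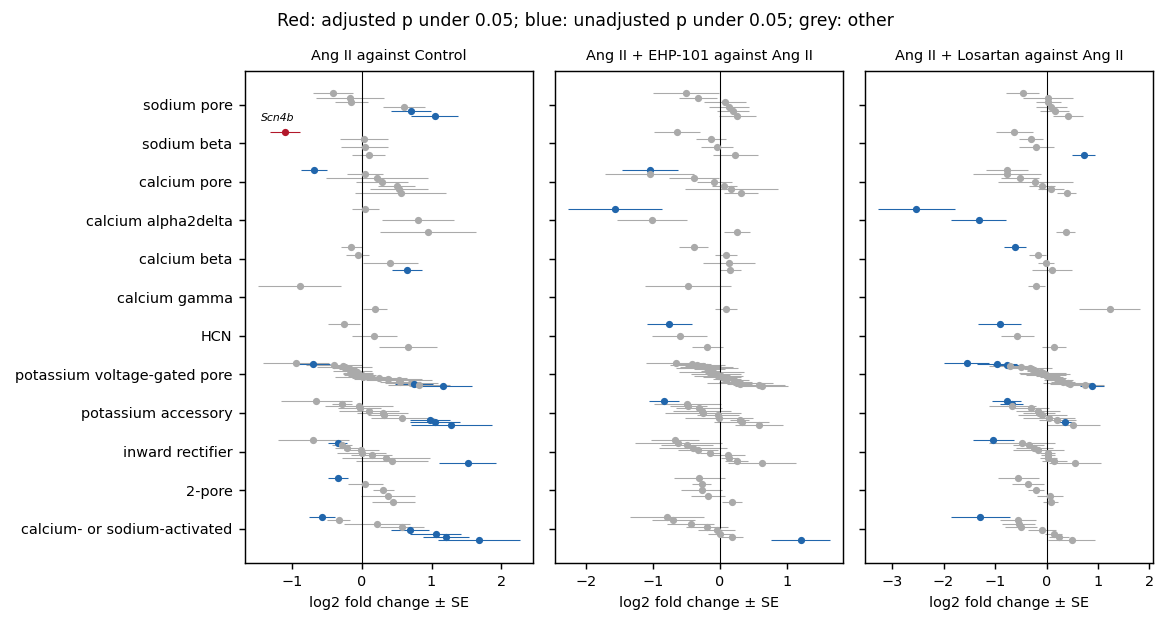
Log2 fold change ± SE of each of the 85 tested channel genes by family in 3 comparisons, with red for an adjusted p under 0.05, blue for an unadjusted p under 0.05 and grey for the rest. Scn4b between Ang II and Control is the only red point, and the losartan panel has 11 blue points on the low side and 3 on the high side.

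The treated groups were also set against Control. With EHP-101, Scn4b was the 1 channel gene called lower and 0 were called higher, where 0.0978% of all genes were lower and 0.3% higher. For 9 genes on each side the unadjusted p was under 0.05, where 8.76% and 8.15% of all genes were. After Scn4b the smallest p values were those of Cacna1s (log2 -0.62 ± 0.18, adjusted p = 0.157), Scn2a (1.13 ± 0.34, 0.157), Scn3a (0.97 ± 0.29, 0.158), Kcnt1 (1.43 ± 0.46, 0.176) and Kcnn3 (1.01 ± 0.33, 0.183), all in edgeR. Scn3a had 3.81, 4.63 and 2.98 CPM with EHP-101, each above the Control range of 1.08 to 2.38 CPM, and DESeq2 called it with Scn4b, among 492 genes in all (1.72%). With the atrial score as a covariate Kcnj15 was called as well as Scn4b (log2 1.31, adjusted p = 0.0475), among 258 genes in all (1.68%). The fit with quality weights called 2 channel genes, among 477 in all (3.11%).

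With losartan against Control, 0 channel genes and 0% of all genes were called in edgeR, and 0 channel genes in DESeq2, which called 22 genes in all (0.0767%). The unadjusted p was under 0.05 for 4 channel genes on the high side and 3 on the low side, where 5.54% and 5.16% of all genes were. Kcnh2 had 83.4, 81.1 and 97.3 CPM in Control and 50.5, 72.1 and 66.03 CPM with losartan, all of the latter lower (log2 -0.47 ± 0.14, unadjusted p = 0.00644, adjusted p = 0.456). Kcng2 and Kcnj11 had log2 differences of -0.45 ± 0.17 and -0.31 ± 0.13. On the high side were Scn3a (0.87 ± 0.29), Scn7a (0.70 ± 0.30), Cacna2d1 (0.42 ± 0.19) and Kcnip4 (1.33 ± 0.59), a relative of Kcnip2 of low level in heart. The adjusted p was 0.456 for each of these 7 genes.

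Losartan and EHP-101 were compared directly as a comparison added after the data were seen, and 0 channel genes were called in edgeR, where the unadjusted p was under 0.05 for 5 on the high and 3 on the low side (5.88% and 3.53%). Over all genes 0% were called, and 2.97% and 3.07% had such a p. Scn4b had the smallest p, 0.00194 unadjusted, with a log2 difference of 0.85 ± 0.22 and 3 of 3 losartan libraries above all EHP-101 libraries (adjusted p = 0.59, edgeR). Among the other named genes, Kcnh1 had -1.50 ± 0.44 (adjusted p = 0.606) and Kcnv2 0.65 ± 0.24 (adjusted p = 0.744). The 2 treatments differ in dose, route and target, and the comparison gives no reading of either alone.

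Several channel genes of atrial and nodal tissue differed widely between libraries of 1 group, as the atrial markers did. Cacna2d2 ranged from 1.40 to 34.1 CPM over the 12 libraries, with 20.4, 1.399 and 11.4 CPM in the 3 Control libraries. The Control library at 1.40 CPM is the one with an atrial score of -1.77, and the highest, Ang II replicate 1, has the highest score, 1.91. Losartan replicate 2, at a score of 0.85, is an exception, with 4.14 CPM beside 3.67 and 3.33 CPM in the other losartan libraries. Cacna1h, a T-type pore, had 29.4, 5.22 and 32.8 CPM in Control and 51.03, 23.4 and 25.2 with Ang II. With EHP-101 it had 19.03, 10.1 and 19.2 CPM and with losartan 9.95, 37.8 and 10.8, where replicate 2 stood out. Of the acetylcholine-opened pair, Kcnj3 had 92.2, 46.5 and 136 CPM in Control and 118, 91.5 and 64.7 with Ang II, and 31.1% of the exon bases of Kcnj3 are shared with an opposite-strand gene. Kcnj5 had 117, 54.2 and 118 CPM in Control and 125, 99.7 and 94.9 with Ang II. Both were lowest in replicate 2 among the Control libraries. Scn4b was 72.4 CPM in the Control library with a score of -1.77, 46.5 CPM in the one with 1.04 and 67.7 CPM in the one with 1.21. Its lowest value of the 12 was in Ang II replicate 1, which has the highest score, 1.91. The next lowest was in EHP-101 replicate 2, at a score of -1.57. The plot of 6 genes against the atrial score shows the libraries one by one.

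**Figure D5:**
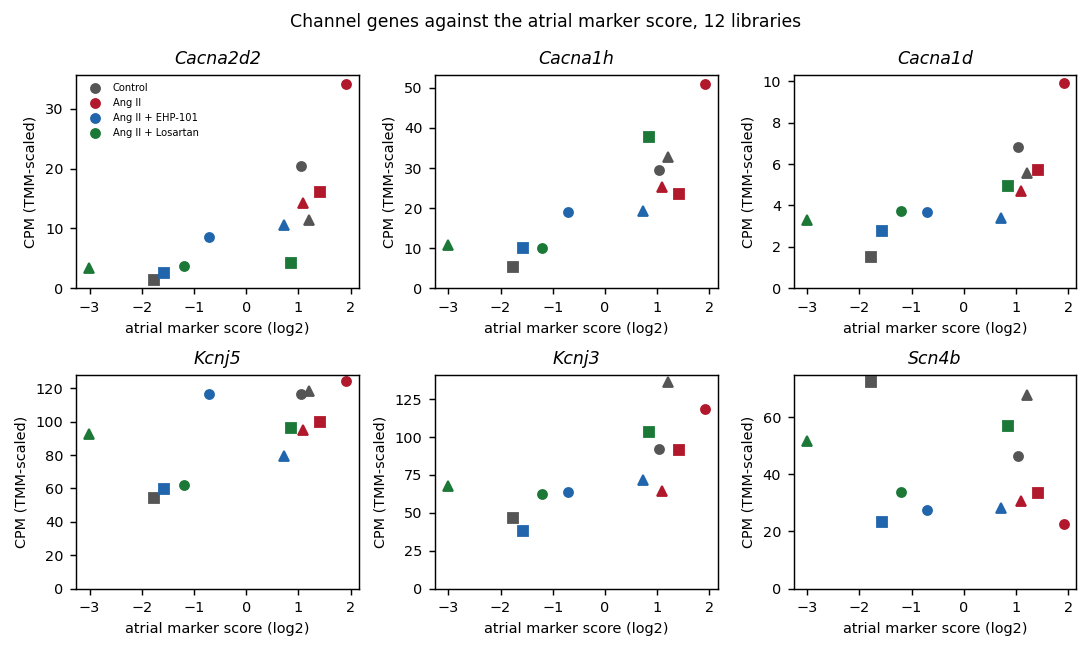
CPM of 6 channel genes against the atrial marker score of each of the 12 libraries, in log2 units, with colour for the group and circles, squares and triangles for replicates 1, 2 and 3. Cacna2d2, Cacna1h and Cacna1d are low in libraries with low scores such as Control replicate 2 at -1.77, while Scn4b in that library is 72.4 CPM, the highest of the 12. The lowest Scn4b value of the 12 is in Ang II replicate 1, which has the highest score.

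The markers of sinoatrial node and conduction tissue, 7 of 8 of them tested, summed to 117.3 to 139.8 CPM in Control, 139.3 to 171.6 with Ang II, 118.6 to 136.6 with EHP-101 and 101.2 to 133.7 with losartan. Most of each sum was Smoc2, at 74.08 to 107.3 CPM over the 12 libraries. Cntn2 ranged from 2.691 to 30.11 CPM, Cpne5 from 0.3229 to 10.37 and Tbx3 from 9.311 to 16.73, so the sums hide wide differences in some markers. Hcn4 had 8.39, 4.14 and 6.88 CPM in Control and 2.93, 4.35 and 7.59 CPM with losartan. Hcn2, the form more abundant in ventricle, had 19.5, 29.3 and 19.2 CPM in Control, 16.02, 24.5 and 16.4 with Ang II, 17.1, 16.04 and 16.9 with EHP-101 and 15.4, 20.03 and 27.5 with losartan, and the EHP-101 values lay below the Control values. Neither Hcn4 nor Hcn2 was called in any of the 5 comparisons in edgeR or DESeq2, and the largest log2 difference of Hcn2 was -0.44 ± 0.23, for EHP-101 against Control. How much atrial or nodal tissue each heart sample held was not recorded in the labels, and its part in these values cannot be told apart from a change within the tissue.

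Other genes of excitability were read from fixed lists. Of 16 genes of intracellular calcium handling, such as the release channel Ryr2, the pump Atp2a2 and its inhibitor Pln, 0 were called in any of the 5 comparisons in edgeR (1 of 16 had an unadjusted p under 0.05 with Ang II, on the low side), and their median log2 fold change with Ang II was -0.15. Of 17 tested partners and targeting proteins of channels, 0 were called, with 1 at an unadjusted p under 0.05 (median -0.06). The same held for 5 gap junction genes (median 0.07), 14 genes of other currents and pumps (-0.03) and 14 tested transcription factors of conduction and channel expression (-0.19), none of which had an unadjusted p under 0.05 with Ang II. Over all genes tested the median was 0.00. Gja1, the main ventricular gap junction protein, had 669, 638 and 605 CPM in Control and 512, 602 and 546 with Ang II, and EHP-101 replicate 2 stood apart at 232 CPM from 548 and 570 CPM. Pln had a log2 fold change of -0.42 ± 0.16 with Ang II (adjusted p = 0.233, edgeR), and Abcc9, the regulatory subunit of the ATP-sensitive channels, one of -0.20 ± 0.30.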

How the data were processed

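The authors deposited raw read counts per gene for 12 libraries, with no normalised values. Per the labels' protocols, 300 ng of RNA per sample went through poly(A) capture and the TruSeq kit v2, which keeps no strand, and single-end reads of 50 bases were made. Per the submitters' processing notes, fastp 0.20.0, HISAT2 2.1.0, featureCounts 2.0.0 and edgeR 3.30.0 were used with GRCm38. The annotation release used for counting is not given in the sources used here. Groups were taken from the labels. Symbols were matched for 47224 of 47729 genes, and positions, exon lengths and shared exon bases are from GENCODE M21. Of the tested channel genes, 29 share exon bases with a further gene, so part of their reads may be misassigned. Upstream sequences are from RefSeq.

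In R 4.3.3 with edgeR 4.0.16, genes were filtered with filterByExpr at a minimum count of 10, which left 15336, and scaled by TMM. The robust quasi-likelihood model had 1 mean for each group over all 12 libraries (common biological coefficient of variation 0.189). Tests were two-sided, adjusted by Benjamini-Hochberg over all tested genes, with a threshold of 0.05. The SE is the absolute log2 fold change divided by the square root of the F statistic, so it restates the test. Scores use log2 CPM with a prior count of 2. With 3 libraries a side, exact permutation reaches no p below 0.1, so none was used. Genes named are those called, the 6 with the smallest p per comparison, a list of cardiac and vascular channel genes, and the 2 highest and 2 lowest per family by CPM per kb, 65 in all, some of which are not reported here. The members, lists and tests were chosen with earlier results of these data known. Alternatives were RLE factors, library size alone, other filters, DESeq2 1.42.0, limma 3.58.1 (voom, with and without quality weights), the replicate block, the atrial score, 2 groups only and each library left out.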

Additional observations from a re-analysis of the deposited data

How the results depend on the processing

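With Ang II against Control, 1 channel gene was called as reported, and the count was 0 with library size alone, with a mean of at least 5 CPM, with limma-voom, with the atrial score as a covariate and with only the 2 groups compared. It was 5 in DESeq2 and 22 with limma-voom and quality weights, which gave Control replicate 2 a weight of 0.112 and called 2617 genes in all against 83. With EHP-101 against Control, 1 was called as reported, 0 with library size alone or only the 2 groups compared, and 2 in DESeq2, with quality weights and with the atrial score. With losartan against Ang II, 0 were called as reported and 6 with quality weights. Leaving out each library in turn gave 0 to 1 calls for Ang II and for EHP-101 against Control, and 0 in the other comparisons. No named gene changed sign while called. The cause of these changes was not tested. Replicate numbers do not pair the samples by the labels, and deviations of same-numbered libraries correlated from -0.327 to 0.33. With the replicate block the channel counts were 1 for Ang II and 1 for EHP-101 against Control and 0 elsewhere, and calls over all genes went from 83 to 57 and from 61 to 36. Of 260 group levels, 249 moved by less than 1 SD under library size alone.

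With 3 libraries a group, genes under about 1 CPM rest on few reads, and 53 members did not pass the filter on low counts. The edgeR fit without that filter and DESeq2 each took in 131 members.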

Other observations

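The 53 channel genes that were not tested had between 0 and 22 reads in any library. They include pores best known from neurons and sensory cells. Scn1a had 5 reads over all 12 libraries, Scn9a 7, Scn11a 8 and Scn8a 44. Of the calcium pores, Cacna1f had 12 reads, Cacna1i 59 and Cacna1b 73. The beta subunit Kcne2, known as a partner of Kcnh2, had 18 reads, and Hcn3 had 57. The highest total was that of Kcnc4, with 98 reads and 3 to 22 per library. These genes were named for their known sites of expression or their totals, after their values were seen. At this depth these genes rest on few reads, and whether they changed was not tested in the filtered fit.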
